A study of Mus musculus with 12 samples.

Results

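Osteoclast cultures that had shared their well with eosinophils (OCsEo) were compared with cultures that had received the supernatant of eosinophils (OCsEoS). The comparison used 8 of the 12 libraries of the bulk RNA-seq experiment, 4 in each group, and all 13681 genes that passed a low-count filter. The other 4 libraries, from unstimulated cultures (OCsCtr), gave the level without either stimulus. The starting cells were monocytes from the bone marrow (BMMs) of WT BALB/c mice, kept in osteoclast medium with M-CSF and RANKL, and RNA was taken on day 3 in all groups. In OCsEo, 2 sorted eosinophils were added for each BMM, and in OCsEoS, eosinophil supernatant was added at a 1:2 dilution. Each stimulus was present for 48 h from day 0, followed by a wash, fresh medium and a further day of culture before the RNA was taken. The eosinophils came from pooled blood and bone marrow of IL-5tg/4get mice, which carry an Il5 transgene and a GFP reporter of Il4 transcription. They were sorted as CD45+ cells with Siglec-F on the surface and an intermediate level of the IL-5 receptor. The study describes the libraries of a group as biological replicates and its data points as individual mice. The labels do not tie a library to a mouse or to a pool of eosinophils, and the promoter of the transgene is not given in the sources used here. P-values measure the spread between these libraries.

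Osteoclasts are multinucleated cells that form by fusion of monocytes under M-CSF and RANKL and that dissolve bone with acid and lysosomal proteases. Eosinophils are granulocytes that store cationic proteins and a peroxidase in granules and can release them into the medium. Supernatant carries what the cells have released, whereas co-culture adds contact, continued release, engulfment of the added cells and their RNA. The supernatant came from eosinophils cultured alone and was stored frozen before it was diluted. The dose of released products was therefore not matched between OCsEo and OCsEoS. Whether a difference came from the cells themselves or from another dose of their products was not tested. In bulk RNA, transcripts of remaining eosinophils and transcripts made by the osteoclast cultures themselves cannot be told apart, nor can fewer cells of a type and less RNA per cell.

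Each library held between 27837530 and 40327869 counts, and a count of 3, taken as the floor of detection, corresponded to 0.0769 to 0.107 CPM (counts scaled to a common library size). Osteoclast genes such as Acp5 (tartrate-resistant phosphatase) and Ctsk (cathepsin K) were among the high genes of every library, with at least 3088 CPM for Acp5 and 6155 CPM for Ctsk. The transcripts of the mitochondrial genome took 0.487% to 1.43% of the counts, with the highest share in OCsCtr 1. Library OCsEo 3 was the deepest of its group and OCsEo 4 the shallowest.

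Few genes passed the thresholds for a difference between the stimuli. At an adjusted p under 0.05 (edgeR, Benjamini-Hochberg over all genes tested) and a log2 difference over 0.5, 42 genes were higher in OCsEo, which is 0.307% of the genes tested, and 10 were higher in OCsEoS, which is 0.0731%. The differences below are log2 values of OCsEo minus OCsEoS with their standard errors, so that positive values stand for higher levels with the cells. For the 52 genes the median size of the difference was 0.87, and 21 exceeded 1. The 8 libraries did not overlap for 51 of them, and Rpl17 was the exception. Over all genes, every OCsEo library lay above every OCsEoS library for 418 (3.06%) and below for 330 (2.41%). Without the threshold on the size of the difference, 68 genes (0.497%) were higher in OCsEo and 13 (0.095%) were higher in OCsEoS. Before adjustment, 1524 of the 13681 genes tested had a p under 0.05 (edgeR), a number that includes those due to chance. Conversely, the 95% interval of the difference lay within 0.5 to either side of 0 for 7631 genes (55.8%) and within 1 for 10425 (76.2%). For the remaining genes the interval reached beyond these limits, which does not show that they differed.

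Single libraries weighed on the number of calls. Without OCsEoS 3, 16 genes were higher in OCsEo and 1 was lower. Without OCsEo 2 the counts were 23 and 4, and without OCsEo 4 they were 27 and 8. The number of genes higher in OCsEoS fell to 5 without OCsEo 1, to 6 without OCsEo 3, to 5 without OCsEoS 1 and to 6 without OCsEoS 4. The genes Alox15, Fabp5, Gm6166, Gpnmb, Gstm1, Il5, mt-Nd6, Npy, Pglyrp1, Sepw1, Serpinb2 and Syngr1 were called with any 1 of the 12 libraries left out. The other 40 genes, among them all 10 that were higher in OCsEoS, lost their call in at least 1 of these fits. With edgeR on the 8 compared libraries alone, 13 of the 52 were no longer called, namely Angptl6, Cdkn1c, Chac1, Ctla2a, Ephx2, Gm13139, Hist1h2al, Lst1, Ltf, Ndrg4, Pcp4l1, Pgm5 and Prg2. Upper-quartile scaling lost Angptl6, Ephx2 and Lst1.

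**Figure D1:**
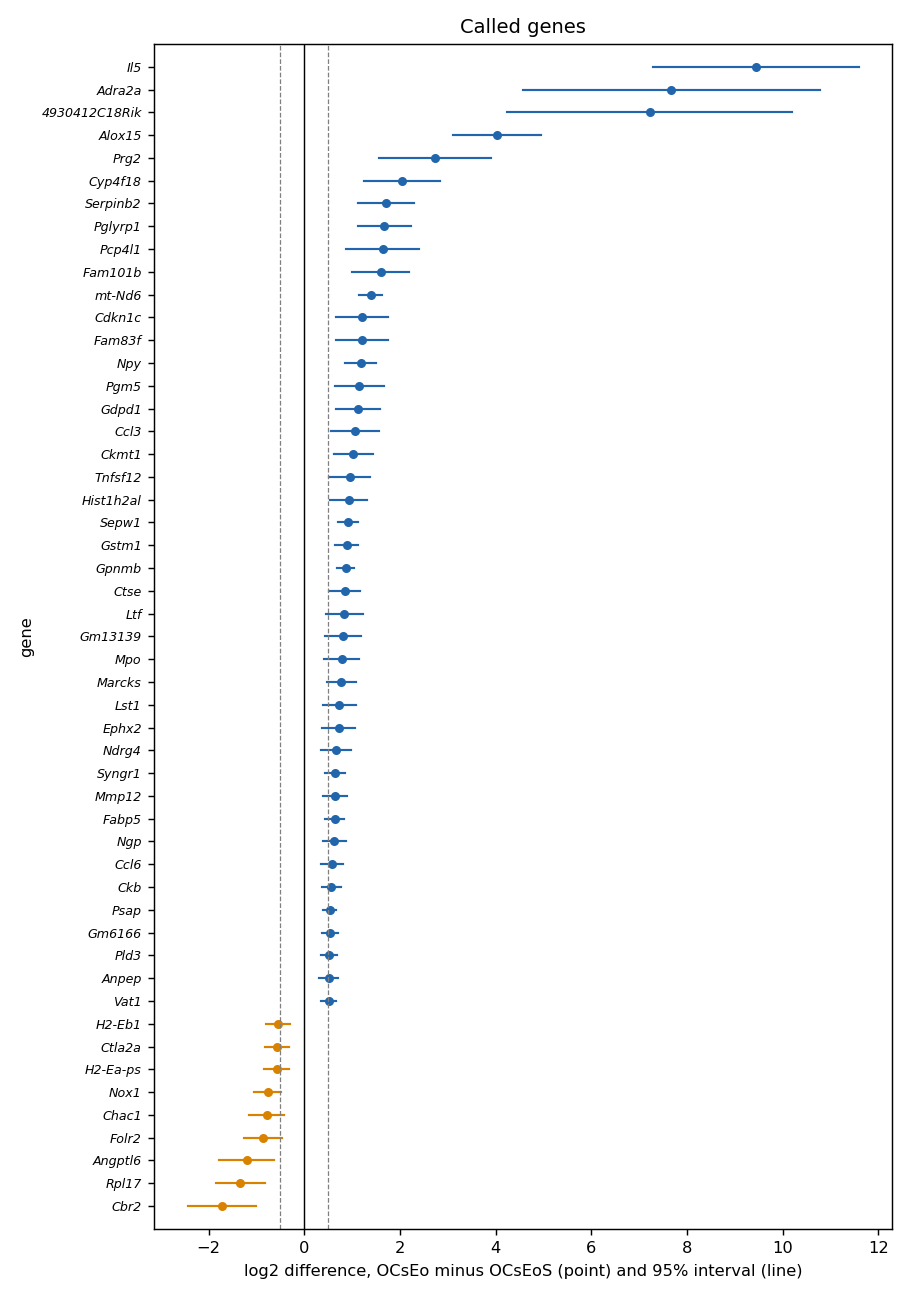
Log2 difference between OCsEo and OCsEoS (horizontal axis) for 51 of the called genes (vertical axis), with the 95% interval as a line. Blue points are the 42 genes higher in OCsEo, orange points 9 genes higher in OCsEoS, and the dashed lines mark 0.5. Il5, with 9.44, and 2 further genes with no count in OCsEoS lie far to the right, and most other points lie between 0.5 and 2.

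Il5, the cytokine that drives the growth and survival of eosinophils (ENSMUSG00000036117, GRCm38, chr11:53720794-53725106), differed most. Its level was 2.24, 2.50, 4.18 and 1.52 CPM in OCsEo, from 75, 94, 163 and 44 counts, and 0 in all 4 OCsEoS libraries. In OCsCtr 1 count was found in 1 of the libraries, so that the transcript was present with the cells and at or near 0 without them. Against the floor of 3 counts per library, Il5 was at least 28.2-fold higher in OCsEo than in OCsEoS (adjusted p = 0.00013, edgeR). The donors of the eosinophils carry an Il5 transgene, and whether these counts come from the transgene, from the Il5 gene of the added cells or from the cultures was not tested. An antisense gene, Gm12214, overlaps Il5 over 666 bases, and without a stated strand setting its reads cannot be told apart from those of Il5.

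Alox15, the 12/15-lipoxygenase that oxidizes arachidonic acid and is abundant in eosinophils (ENSMUSG00000018924, chr11:70344152-70352031), had the largest difference among the called genes with counts in both groups. The OCsEo libraries held 9.68, 11.3, 16.7 and 6.24 CPM and the OCsEoS libraries 0.641, 1.13, 0.178 and 0.729 CPM. The OCsCtr libraries, between 0.104 and 0.653 CPM, overlapped with OCsEoS, and both lay below every OCsEo library. The difference was 4.03 ± 0.44 (adjusted p = 6.26e-05, edgeR), or 16.3-fold, and against OCsCtr the values were 5.17 for OCsEo and 1.14 for OCsEoS, of which the second was not called (adjusted p = 0.129).

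Siglecf, the surface lectin used to sort the eosinophils, stood at 2.90, 2.53, 3.28 and 3.05 CPM in OCsEo and at 0.747, 1.30, 0.237 and 1.02 CPM in OCsEoS. The groups did not overlap, but the difference of 1.82 ± 0.46 did not pass the test (adjusted p = 0.0827, edgeR). The OCsCtr libraries held 0.218 to 0.653 CPM. Ccr3, the eotaxin receptor, was found at 45.7 to 53.2 CPM in OCsEo, 47.3 to 53.0 CPM in OCsEoS and 51.3 to 65.6 CPM in OCsCtr, so that the groups overlapped (difference -0.06, adjusted p = 0.837). The IL-5 receptor chain Il5ra, the other surface protein of the sort, was below the filter, with 14, 7, 4 and 6 counts in OCsEo, 0, 0, 0 and 10 in OCsEoS and 0, 4, 0 and 0 in OCsCtr.

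Granule protein genes showed another pattern, since they were also detected in OCsCtr, to which no eosinophils were added. Prg2, the major basic protein of eosinophil granules (ENSMUSG00000027073, chr2:84980461-84983632), stood at 4.21, 5.93, 7.26 and 4.57 CPM in OCsEo, at 0.249, 1.79, 1.22 and 0 CPM in OCsEoS, and at 3.85, 7.83, 6.39 and 4.04 CPM in OCsCtr. OCsEo and OCsCtr overlapped throughout, and OCsEoS lay below both. The difference between OCsEo and OCsEoS was 2.73 ± 0.56 (adjusted p = 0.0261, edgeR). Against OCsCtr, OCsEo differed by -0.01 and OCsEoS by -2.74 (adjusted p = 0.00136). The call between OCsEo and OCsEoS was lost without OCsEo 2, OCsEo 3, OCsEoS 1 or OCsEoS 3, with adjusted p-values up to 0.0766, with edgeR on the 8 compared libraries alone, and with DESeq2 (adjusted p = 0.0831 on 12 libraries and 0.282 on 8).

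The remaining granule genes were found at a few counts. Epx, the eosinophil peroxidase, had 0, 18, 13 and 0 counts in OCsEo, none in OCsEoS and 0, 3, 6 and 0 in OCsCtr. Ear1, an eosinophil ribonuclease, had 11, 29, 12 and 2 counts in OCsEo, none in OCsEoS and 0, 6, 3 and 0 in OCsCtr. Prg3 and Ear6 likewise had no count in OCsEoS, and both were detected in OCsCtr at mean levels of 0.305 and 0.187 CPM, beside 0.229 and 0.263 CPM in OCsEo. In a fit without the filter none of these 4 genes passed the test (adjusted p between 0.0741 for Ear1 and 0.275 for Epx, edgeR). The sum of Epx, Prg2, Prg3, Ear1, Ear2 and Ear6 ran from 4.92 to 8.92 CPM in OCsEo, from 4.88 to 9.79 CPM in OCsCtr and from 0 to 2.40 CPM in OCsEoS. Most of this sum was Prg2. Without Prg2 the sum ran from 0.346 to 2.82 CPM in OCsEo, from 0.840 to 1.96 CPM in OCsCtr and from 0 to 0.608 CPM in OCsEoS, so that OCsEo overlapped with both other groups. The Ear genes are close copies of each other, and how the counting divided their reads is not known.

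Of the 15 defining eosinophil genes listed, 13 were in the table, 7 passed the filter and 2, Alox15 and Prg2, were called. Both were higher in OCsEo, against 0.307% of all genes tested. Gata1 and Cebpe, transcription factors of the eosinophil lineage, differed by 0.67 and 0.38 and were not called (adjusted p = 0.618 and 0.599, edgeR). Of the 7 genes that the study names as eosinophil related, and that it chose on these libraries, Il5, Alox15 and Mpo were called, Alox5ap, the protein that presents arachidonic acid to 5-lipoxygenase, had a difference of -0.06, and Retnlg had a difference of 0.96 (adjusted p = 0.0565). Alox5ap stood at a mean of 169 CPM in OCsEo, 175 CPM in OCsEoS and 90.2 CPM in OCsCtr, so that its level above OCsCtr was seen with either stimulus. The cytokines Il4 and Il13, named here after the values had been seen, were below the filter. Il4 had 7, 42, 14 and 3 counts in OCsEo, 8, 9, 13 and 6 in OCsEoS and 2, 5, 8 and 8 in OCsCtr, and Il13 had 0, 0, 10 and 4 counts in OCsEo and none elsewhere.

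**Figure D2:**
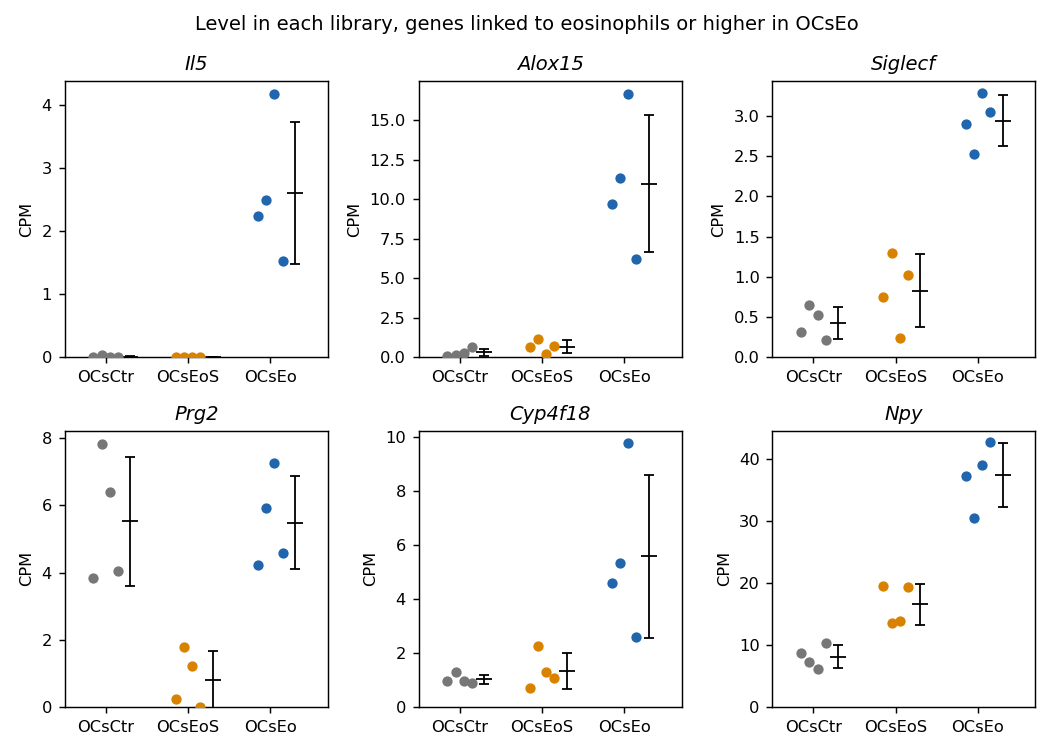
Level in CPM (vertical axes, from 0) of 6 genes in the 4 libraries of OCsCtr, OCsEoS and OCsEo, each point being 1 library, with the mean and SD as a black bar cut at 0. Il5, Alox15, Siglecf and Cyp4f18 stand high in OCsEo and low in the other groups, Prg2 stands low in OCsEoS and at like levels in OCsCtr and OCsEo, and Npy climbs from OCsCtr over OCsEoS to OCsEo.

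Of 21 neutrophil genes tested, 3 were called, all higher in OCsEo, against 0.307% of all genes tested. Mpo, the myeloperoxidase of primary granules, stood at 27.7, 27.0, 41.6 and 25.7 CPM in OCsEo and at 15.5, 23.1, 17.4 and 14.8 CPM in OCsEoS (difference 0.79 ± 0.18, adjusted p = 0.0441, edgeR). OCsEo lay above OCsEoS throughout, but OCsCtr, between 16.7 and 27.8 CPM, overlapped with both, and OCsEo did not differ from it beyond the spread for Mpo or Ltf (adjusted p = 0.209 and 0.1). Ltf (lactoferrin, 0.84, adjusted p = 0.043) and Ngp (neutrophilic granule protein, 0.62, adjusted p = 0.0148) of the secondary granules were also higher in OCsEo. The call of Mpo was lost without any 1 of 9 libraries (all but OCsCtr 3, OCsCtr 4 and OCsEoS 2, adjusted p up to 0.147), that of Ltf without OCsCtr 1, OCsEo 1, OCsEo 2, OCsEo 3, OCsEoS 3 or OCsEoS 4 (up to 0.149), and that of Ngp without OCsEo 2 or OCsEoS 3 (up to 0.0647). In all, 1 of 4 primary and 2 of 6 secondary granule genes were called, all 10 had differences above 0, and none of the 11 mature neutrophil genes tested was called although 10 lay above 0, against a median of 0.00 over all genes. The summed level of the secondary granule list was 160 to 173 CPM in OCsEo, 96.0 to 117 CPM in OCsEoS and 101 to 142 CPM in OCsCtr. Whether these transcripts came from the added cells, from granulocyte precursors in the BMM cultures or from the osteoclasts was not tested.

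Markers of other blood cells gave no call. None of the tested genes was called among 7 of T and NK cells, 9 of B and plasma cells, 6 of basophils and mast cells, 3 of erythroid cells, 6 of platelets, 5 of stromal cells and 7 of dendritic cells. The summed T and NK cell list was 6.55 to 9.17 CPM in OCsEo, 4.46 to 8.57 CPM in OCsEoS and 5.59 to 8.04 CPM in OCsCtr, so that the groups overlapped. The basophil and mast cell list held 6.75 to 8.54 CPM in OCsEo and 4.49 to 6.92 CPM in OCsEoS, with 6.88 to 9.24 CPM in OCsCtr. For the B and plasma cell list the sums were 82.4 to 102 CPM in OCsEo, 64.0 to 84.9 CPM in OCsEoS and 35.5 to 88.8 CPM in OCsCtr. The erythroid sums were 2.03 to 4.67 and 3.12 to 5.79 CPM, the platelet sums 97.1 to 169 and 135 to 177 CPM, the stromal sums 10.5 to 44.2 and 13.5 to 42.4 CPM, and the dendritic sums 6.20 to 12 and 5.25 to 13.7 CPM in OCsEo and OCsEoS, and these overlapped. Xist was found in every library and did not differ beyond the spread (-0.15, adjusted p = 0.782). Of the Y-linked genes listed, Ddx3y had 11 counts (0.329 CPM) in OCsEo 1 and Uty had 3 counts in OCsEo 3. No other library held a count of a listed Y-linked gene.

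Several genes with a known place in granulocytes or inflamed macrophages followed the co-culture. Cyp4f18, which hydroxylates leukotriene B4 in neutrophils, was measured at 4.57, 5.34, 9.77 and 2.60 CPM in OCsEo and 0.712, 2.26, 1.31 and 1.08 CPM in OCsEoS. Its difference was 2.05 ± 0.38 (adjusted p = 0.0148, edgeR), and the call was lost without OCsEo 3, OCsEoS 1 or OCsEoS 3. Serpinb2, the plasminogen activator inhibitor of macrophages, differed by 1.71 ± 0.28 (adjusted p = 0.00496), but overlaps the annotated gene Serpinb10 over 6476 bases on the same strand. Pglyrp1, a peptidoglycan recognition protein of granulocyte granules, differed by 1.67 ± 0.27 (adjusted p = 0.00378). For both genes the OCsCtr libraries lay at the level of OCsEoS, with differences from OCsCtr of 0.20 and -0.09 for OCsEoS and 1.91 and 1.59 for OCsEo.

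In 6 of the 42 genes (14.3%), namely Alox15, Cyp4f18, Il5, Mpo, Pglyrp1 and Serpinb2, OCsEo 3 was the highest and OCsEo 4 the lowest library of its group. The same order was found for 8.09% of all genes tested, and it is also the order of the library totals. Its part in the differences was not tested.

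Npy, the precursor of neuropeptide Y, was one of the genes for which both stimuli were above OCsCtr and OCsEo was above OCsEoS. Its level was 8.77, 7.18, 6.12 and 10.3 CPM in OCsCtr, 19.5, 13.6, 13.8 and 19.3 CPM in OCsEoS and 37.2, 30.5, 39.1 and 42.7 CPM in OCsEo. The 3 groups did not overlap. OCsEo exceeded OCsEoS by 1.18 ± 0.16 (adjusted p = 0.000561, edgeR), and OCsEoS exceeded OCsCtr by 1.03 (adjusted p = 0.000144). Mmp12, the elastase of macrophages, behaved likewise, with 170 to 203 CPM in OCsEo, 113 to 128 CPM in OCsEoS and 35.7 to 65.6 CPM in OCsCtr. Fabp5, a fatty acid binding protein, ran from 109 to 146, from 74.8 to 92.2 and from 53.6 to 62.1 CPM in the same order of groups, and Ccl6, a chemokine of myeloid cells, from 112 to 146, from 73.9 to 91.7 and from 43.6 to 69.2 CPM.

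Among the myeloid cytokines and chemokines, 2 of the 20 tested were called, both higher in OCsEo, against 0.307% of all genes tested. Besides Ccl6 (0.58 ± 0.11, adjusted p = 0.0148, edgeR) this was Ccl3, the chemokine MIP-1 alpha, with 10.5, 7.28, 9.61 and 6.65 CPM in OCsEo against 5.27, 4.83, 3.06 and 3.18 CPM in OCsEoS (1.06 ± 0.24, adjusted p = 0.0439). The call of Ccl3 was lost without OCsCtr 1, OCsEo 1, OCsEo 2, OCsEo 3, OCsEoS 3 or OCsEoS 4 (adjusted p up to 0.153), that of Ccl6 without OCsEo 3, OCsEoS 3 or OCsEoS 4 and that of Mmp12 without OCsEoS 3 (both up to 0.0647). The median over the list was -0.13. Ccl2 and Igf1, which recruits monocytes and promotes growth, respectively, had differences of -0.21 and -0.23 (adjusted p = 0.725 and 0.589), and both were above OCsCtr with either stimulus, by 1.12 and 1.86 in OCsEo and 1.33 and 2.09 in OCsEoS.

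Several genes of the lysosome were higher with the cells. Gpnmb, a transmembrane glycoprotein of lysosomes and phagosomes that macrophages make when their lysosomes are loaded (ENSMUSG00000029816, chr6:49036546-49070929), was measured at 2436, 2248, 2215 and 2490 CPM in OCsEo and at 1373, 1242, 1205 and 1343 CPM in OCsEoS. The OCsCtr libraries held 985 to 1392 CPM, so that OCsEo stood above both other groups. The difference was 0.86 ± 0.08 (adjusted p = 1.38e-05, edgeR), and against OCsCtr it was 1.06 for OCsEo and 0.20 for OCsEoS (adjusted p = 0.0894). Psap, the precursor of the saposins that help to break down sphingolipids, stood at 2928, 2886, 2750 and 3173 CPM in OCsEo, 2121, 2122, 1916 and 1926 CPM in OCsEoS and 1865 to 2327 CPM in OCsCtr (0.54 ± 0.06, adjusted p = 0.000157). Ctse, an aspartic protease of endosomes, differed by 0.85 (adjusted p = 0.0143), and Pld3, an exonuclease of lysosomes, by 0.52 (adjusted p = 0.00253). The calls of Ctse (without OCsEo 2 or OCsEoS 3) and, by the size of the difference, those of Psap (without OCsEo 4) and Pld3 (without OCsEo 4, OCsEoS 3 or OCsEoS 4) were lost.

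The cathepsins Ctsd and Ctsb, the main aspartic and a main cysteine protease of the lysosome, passed the test but stayed under a difference of 0.5. Ctsd was measured at 3615, 3583, 3368 and 3602 CPM in OCsEo, 2693, 2591, 2390 and 2595 CPM in OCsEoS and 2228 to 2568 CPM in OCsCtr (0.46 ± 0.05, adjusted p = 0.000107, edgeR). Ctsb was measured at 2792 to 3222 CPM in OCsEo, 1989 to 2292 CPM in OCsEoS and 1726 to 2168 CPM in OCsCtr (0.48 ± 0.07, adjusted p = 0.00123). For both the OCsEo libraries lay above all others. Lamp1, the lysosomal membrane glycoprotein, had 769 to 856 CPM in OCsEo and 641 to 666 CPM in OCsEoS (0.28, adjusted p = 0.0214), with 514 to 599 CPM in OCsCtr.

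In a list of 55 lysosomal genes, drawn up after these values had been seen and therefore given without a test, 4 were called and 12 passed the adjusted p alone, all higher in OCsEo. 50 of the 55 had differences above 0, 22 had OCsEo wholly above OCsEoS, and none the reverse. Over all genes tested, 0.307% were called higher in OCsEo, and 0.497% were higher by the adjusted p alone. OCsEo lay wholly above OCsEoS for 3.06% of all genes and wholly below for 2.41%. The late choice of the list fixes part of this contrast. Their median difference was 0.20, beside 0.00 over all genes. Against OCsCtr the median was -0.04 for OCsEo and -0.23 for OCsEoS. The members included genes above OCsCtr with the cells, such as Gpnmb, Ctsb, Ctsd and Lamp1. Lamp1 and Creg1 were also above OCsCtr with the supernatant, by 0.24 and 0.19 (adjusted p = 0.0031 and 0.00977, edgeR). Other members were below OCsCtr with the supernatant and near it with the cells. Among these other members, Ctsa, Cd68, Cd63 and Nceh1 differed from OCsCtr by 0.01, -0.03, 0.05 and 0.01 in OCsEo. In OCsEoS they differed from it by -0.30, -0.33, -0.23 and -0.31. The summed list ran from 28401 to 30977 CPM in OCsEo, from 22107 to 23782 CPM in OCsEoS and from 21856 to 25567 CPM in OCsCtr. Ctsc, the dipeptidyl peptidase that activates granule proteases, had the lowest difference (-0.28, adjusted p = 0.203).

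**Figure D3:**
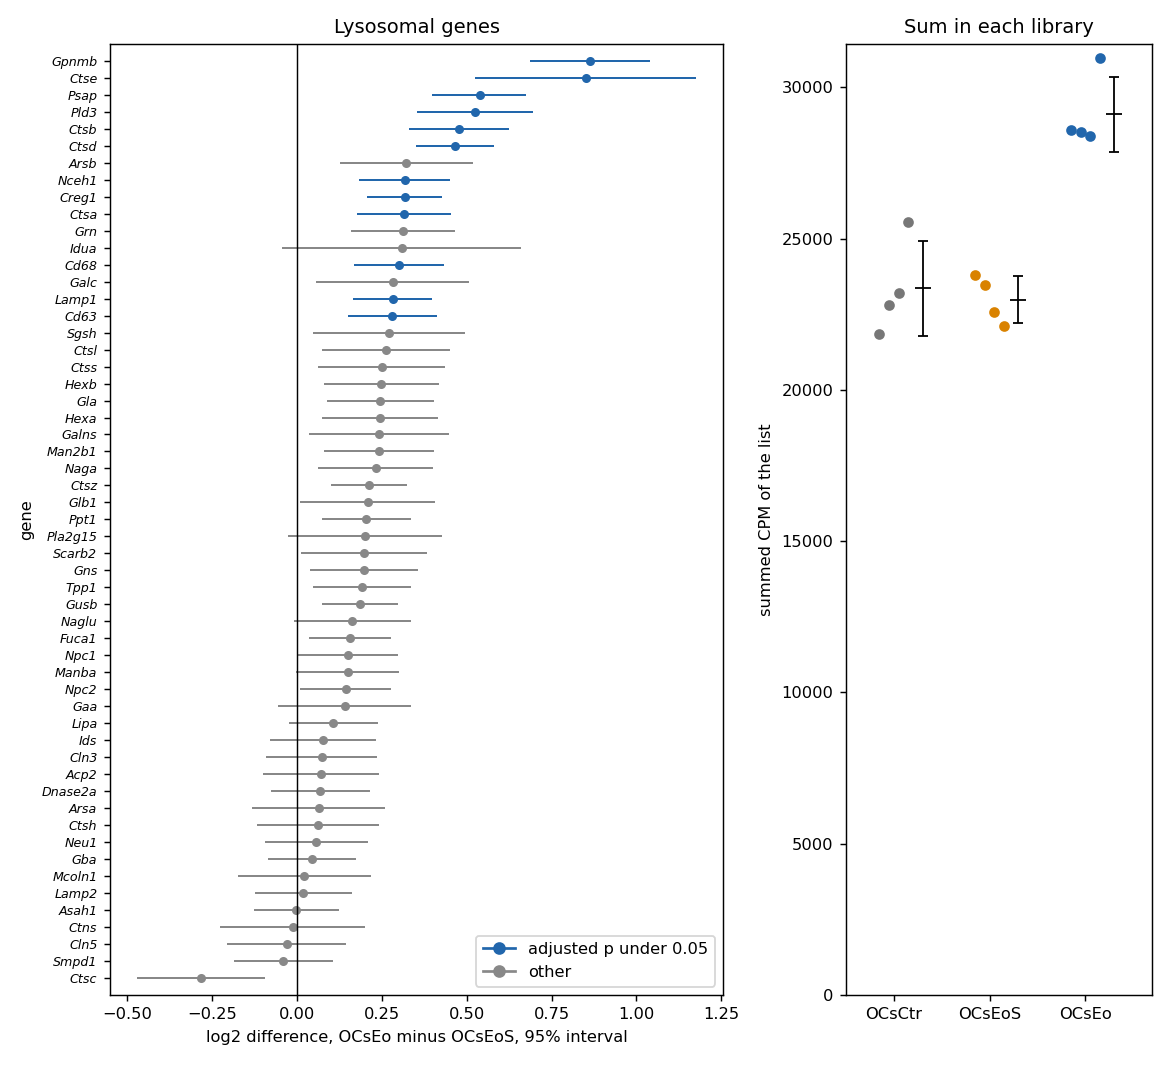
Left, log2 difference between OCsEo and OCsEoS (horizontal axis) with its 95% interval for the 55 lysosomal genes (vertical axis), blue where the adjusted p was under 0.05 and grey otherwise. Right, the summed level of the list in CPM in each library, with mean and SD. 50 of the 55 points lie above 0, and the 4 OCsEo sums, from 28401 CPM upward, lie above those of the 8 other libraries.

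Many lysosomal promoters hold an E-box of the letters TCACGTG, the core of the element to which factors of the TFEB family bind. It was searched on both strands in the 250 bases before the gene start (RefSeq, GRCm38.p6). It was found in 10 of the 44 lysosomal genes with an entry (22.7%), in 3 of the 10 that passed the adjusted p and in 7 of the 34 others. The share was 4.95% among 9700 tested genes with an entry and 3.13% over all 32851 promoters. The 3 were Ctsd, Lamp1 and Nceh1. Lamp1, Glb1 (beta-galactosidase) and Mcoln1 (a calcium channel of the lysosome) are printed to set a gene that passed the test beside 2 with the same letters that did not. Each stretch is 80 bases of the strand of the gene, outside annotated exons, with the E-box in capitals, at chr8:13159081-13159160 for Lamp1, chr9:114400992-114401071 for Glb1 and chr8:3500377-3500456 for Mcoln1, all on the plus strand.
Lamp1: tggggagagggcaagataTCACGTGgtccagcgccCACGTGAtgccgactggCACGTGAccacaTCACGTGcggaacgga
Glb1: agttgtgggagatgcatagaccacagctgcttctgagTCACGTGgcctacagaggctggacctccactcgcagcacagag
Mcoln1: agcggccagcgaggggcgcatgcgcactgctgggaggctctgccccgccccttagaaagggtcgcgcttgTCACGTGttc
Lamp1 holds the letters 4 times in this stretch, and its difference was 0.28. Glb1 and Mcoln1 hold them once, with differences of 0.21 (adjusted p = 0.419) and 0.02 (adjusted p = 0.96). A match of letters is a description and says nothing about binding in these cells.

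Genes of lipid handling and of iron storage lay beside the lysosomal ones. Of 15 lipid genes, Gpnmb and Fabp5 were called and 14 had differences above 0, with a median of 0.20. Over all genes tested, 0.307% were called higher in OCsEo and the median was 0.00. The lipid and lysosomal lists share members, among them Gpnmb and Npc2, and are not independent. Apoe, the apolipoprotein E, had a mean of 55.1 CPM in OCsEo and 36.2 CPM in OCsEoS without passing the test (0.61, adjusted p = 0.137, edgeR). Of 17 heme, iron and oxidative stress genes none was called, but the ferritin chains Fth1 and Ftl1 passed the adjusted p alone. Of all genes tested, 0.497% were higher in OCsEo by that p, and 3.06% had OCsEo wholly above OCsEoS. Fth1 was measured at 5065 to 5717 CPM in OCsEo and 4276 to 4761 CPM in OCsEoS (0.27, adjusted p = 0.0224), and Ftl1 at 12020 to 12920 and 9777 to 10990 CPM (0.24, adjusted p = 0.0238), so that neither pair overlapped. Hmox1, which breaks down heme, differed by -0.04 and was above OCsCtr with either stimulus, by 0.51 and 0.56. Of the antioxidant enzymes outside the lists, Gstm1, a glutathione transferase, stood at 33.4 to 35.5 CPM in OCsEo, 17.4 to 19.8 CPM in OCsEoS and 17.4 to 26.3 CPM in OCsCtr (0.89 ± 0.12, adjusted p = 0.000363), and the selenoprotein Sepw1 at 52.8 to 66.9, 27.9 to 32.4 and 19.9 to 24 CPM (0.91 ± 0.10, adjusted p = 4.1e-05).

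The gene with the smallest p-value was mt-Nd6, a subunit of respiratory complex I and the only protein gene on the light strand of the mitochondrial genome (ENSMUSG00000064368, chrMT:13552-14070). It was measured at 155, 174, 161 and 163 CPM in OCsEo and 61.1, 63.7, 63.3 and 61.5 CPM in OCsEoS (1.39 ± 0.12, adjusted p = 3.09e-06, edgeR). The OCsCtr libraries held 66.7 to 114 CPM. The other 12 protein genes of the mitochondrial genome were not called, and 10 of the 13 had differences below 0. Its neighbour mt-Nd5, which overlaps it over 14 bases on the other strand, stood at 155 to 217 CPM in OCsEo and 150 to 259 CPM in OCsEoS (-0.06, adjusted p = 0.945). Whether reads were counted by strand is not stated, and without strand the reads of both genes in the overlap cannot be told apart.

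The genes that were higher with supernatant were 10 in number. Of these, 6 were also called higher in OCsEoS than in OCsCtr, against 3.63% of all genes tested. The same OCsEoS libraries chose the 10 genes, which fixes part of this count. Cbr2, a carbonyl reductase of macrophages (ENSMUSG00000025150, chr11:120729489-120732114), was measured at 15, 10.2, 10.4 and 6.24 CPM in OCsEoS, 2.51, 2.10, 2.46 and 5.72 CPM in OCsEo and 2.60, 2.46, 3.24 and 6.56 CPM in OCsCtr. OCsEoS lay above OCsEo throughout, with OCsEoS 4 close to OCsEo 4, and OCsEo and OCsCtr overlapped. The difference was -1.72 ± 0.34 (adjusted p = 0.0228, edgeR). Folr2, the folate receptor of resident macrophages, stood at 127, 72.8, 96.3 and 79.9 CPM in OCsEoS, 59.8, 37.4, 42.5 and 66.9 CPM in OCsEo and 19.8 to 34.8 CPM in OCsCtr (-0.87 ± 0.19, adjusted p = 0.0373). It was above OCsCtr with either stimulus, by 1.72 in OCsEoS and 0.85 in OCsEo. The calls of Cbr2 and Folr2 were lost without OCsEo 1, OCsEo 2, OCsEo 3, OCsEoS 1 or OCsEoS 3 (adjusted p up to 0.0823 and 0.136). That of Folr2 was also lost with DESeq2.

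Of 7 MHC class II genes, which serve to present antigen to T cells, 1 was called, higher in OCsEoS, against 0.0731% of all genes tested. H2-Eb1 was measured at 80.6, 102, 83.8 and 84.7 CPM in OCsEoS, 51.5, 66.6, 58.2 and 63.8 CPM in OCsEo and 47.7 to 79.1 CPM in OCsCtr (-0.55 ± 0.12, adjusted p = 0.043, edgeR). Its call was lost without OCsCtr 1 and without any 1 of the 8 libraries compared (adjusted p up to 0.135). H2-Aa (-0.46, adjusted p = 0.0508) and H2-Ab1 (-0.42, adjusted p = 0.0843) did not overlap between the groups either. In all, 3 of the 7 had OCsEoS wholly above OCsEo, against 2.41% of all genes tested. The median over the list was -0.42, and H2-DMa (0.003) and Ciita (0.20), the regulator of these genes, lay above 0. Against OCsCtr the genes H2-Eb1, H2-Aa and H2-Ab1 differed by 0.54, 0.51 and 0.51 in OCsEoS and by -0.01, 0.05 and 0.09 in OCsEo. The related H2-Ea-ps, a pseudogene in the reference strain, differed by -0.58 (adjusted p = 0.034).

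The other genes higher in OCsEoS were Nox1, an NADPH oxidase (12.7 to 16.1 against 6.81 to 9.77 CPM in OCsEo), Ctla2a, a protease inhibitor (15 to 18.6 against 10.3 to 13.8 CPM), Chac1, which degrades glutathione (7.51 to 11.5 against 5.08 to 6.46 CPM), and Angptl6, a secreted angiopoietin-like protein (2.58 to 4.00 against 1.28 to 2.02 CPM). For these 4 every OCsCtr library lay above every OCsEo library. OCsEo was below OCsCtr by -0.45 for Nox1, -0.46 for Ctla2a, -0.52 for Chac1 and -0.81 for Angptl6 (adjusted p = 0.0271, 0.0112, 0.0457 and 0.0472), of which the last 2 were also past the size of 0.5. The differences of OCsEoS from OCsCtr, between 0.10 and 0.40, were not called. The call of Nox1 was lost without OCsEo 2, that of Ctla2a without OCsEo 1, OCsEo 2, OCsEo 3, OCsEoS 1, OCsEoS 3 or OCsEoS 4, that of Chac1 without any 1 of 9 libraries and that of Angptl6 without any 1 of the 12, with the replicate number as a block and without the eosinophil genes. Rpl17, a ribosomal protein gene with many copies in the genome, was measured at 478, 815, 669 and 231 CPM in OCsEoS and 202 to 249 CPM in OCsEo (-1.33, adjusted p = 0.0148), so that OCsEoS 4 lay among the OCsEo libraries.

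**Figure D4:**
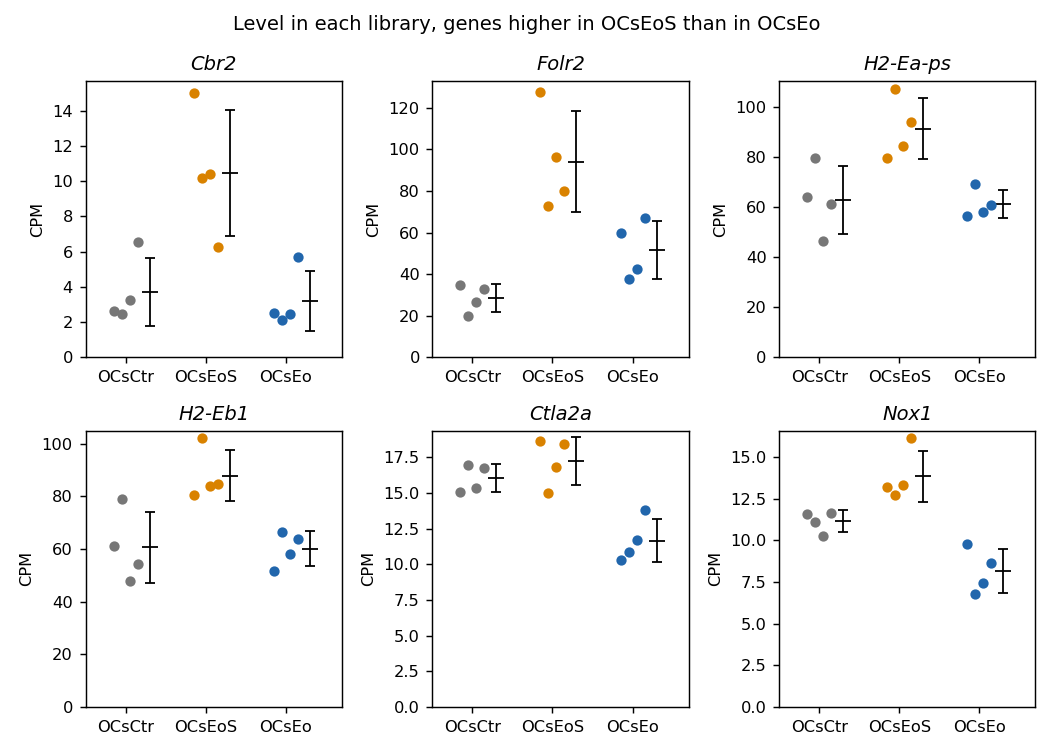
Level in CPM (vertical axes, from 0) of 6 genes higher in OCsEoS, in the 4 libraries of OCsCtr, OCsEoS and OCsEo, each point being 1 library, with the mean and SD as a black bar. For H2-Eb1 the OCsCtr and OCsEo libraries overlap below OCsEoS, for H2-Ea-ps the highest OCsCtr library reaches the lowest of OCsEoS, for Cbr2 OCsCtr and OCsEo overlap below OCsEoS except for OCsCtr 4 (6.56 CPM), which lies above OCsEoS 4, Folr2 stands lowest in OCsCtr, and for Ctla2a and Nox1 OCsEo is the low group.

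The position of OCsCtr was then listed for all called genes. These comparisons share the OCsCtr libraries with each other and the OCsEo or OCsEoS libraries with the contrast that chose the genes, so that the choice fixes part of the counts, and they are given as a description. Of the 42 genes higher in OCsEo, OCsCtr was nearer to OCsEoS for 33 and to OCsEo for 9 by the fitted log2 differences. Over all genes it was nearer to OCsEoS for 43.9%. The 9 include Adra2a and 4930412C18Rik, whose fitted differences are uncertain since OCsEoS had no count. Their mean CPM in OCsCtr (0.0569 and 0.0595) lay nearer to OCsEoS (0) than to OCsEo (0.763 and 0.561). 30 of the 42 were called higher in OCsEo than in OCsCtr, against 3.27% of all genes, and 5 were called higher in OCsEoS than in OCsCtr, against 3.63%. The 5 were Npy, Mmp12, Fabp5, Ccl6 and Gm6166. 6 were called lower in OCsEoS than in OCsCtr, against 4.11%, and 1 was called lower in OCsEo, against 2.61%. The 6 were Prg2, Gdpd1, Hist1h2al and Ephx2 as well as Ckb and Ckmt1, the cytosolic and mitochondrial creatine kinases. Ckb, which supplies energy to resorbing osteoclasts, was measured at 3084 to 3738 CPM in OCsCtr, 2172 to 2779 CPM in OCsEo and 1364 to 2081 CPM in OCsEoS (0.57 ± 0.10, adjusted p = 0.0085, edgeR). Ckmt1 stood at 20.7 to 31.6, 12 to 20.6 and 4.72 to 9.82 CPM in the same order (1.02 ± 0.20, adjusted p = 0.0195), and its 3 groups did not overlap. The calls were lost without OCsEoS 4 for Ckb, by the size of the difference, and without OCsEo 2 for Ckmt1.

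**Figure D5:**
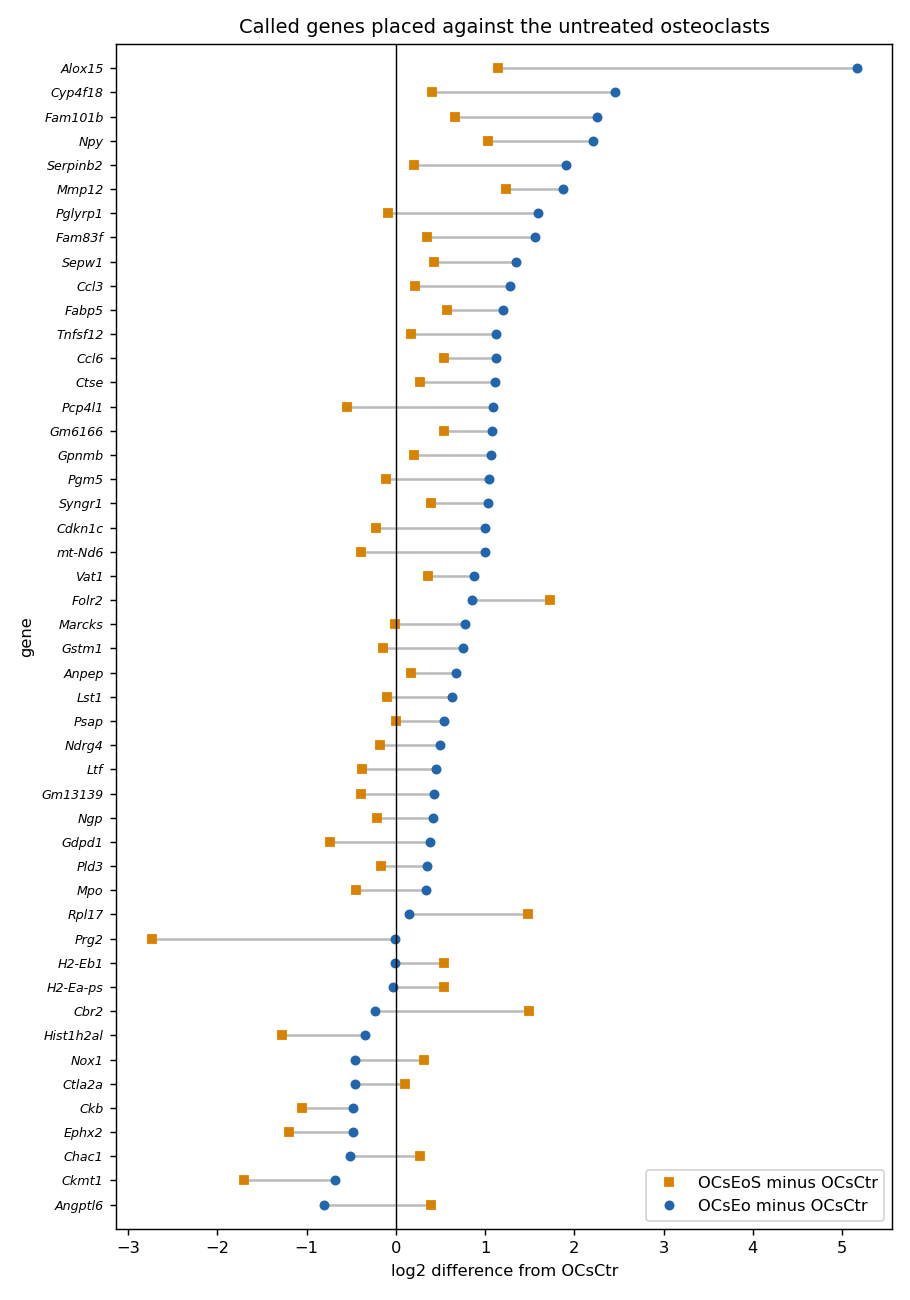
Log2 difference from OCsCtr (horizontal axis) of 48 called genes (vertical axis), as a blue circle for OCsEo and an orange square for OCsEoS. Il5, Adra2a and 4930412C18Rik, with no count in OCsEoS, are left out. Alox15, Cyp4f18, Fam101b and Npy stand far to the right in OCsEo, and Prg2, Hist1h2al, Ckb, Ephx2 and Ckmt1 stand to the left in OCsEoS.

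None of the 20 listed genes of osteoclast differentiation and bone resorption was called. Of these 20 genes, 18 had a 95% interval of the difference within 0.5, against 55.8% of all genes tested. Ckb, which is not on this list, was called, as given above. Over the list, the median difference was 0.06, while the medians against OCsCtr were -0.54 in OCsEo and -0.60 in OCsEoS. Acp5 was measured at 4182, 5192, 4803 and 5427 CPM in OCsEo and 4038, 4991, 4259 and 3088 CPM in OCsEoS, with 6329 to 7867 CPM in OCsCtr (0.26 ± 0.10, adjusted p = 0.341, edgeR). Ctsk was measured at 6878 to 9061, 6155 to 8500 and 10510 to 12790 CPM (0.18, adjusted p = 0.493), and the gelatinase Mmp9 had the largest difference of the list (0.33 ± 0.12, adjusted p = 0.293). OCsEo and OCsEoS overlapped for every member. Nfatc1, the master regulator of osteoclast formation, differed by -0.05, with an adjusted p of 0.865.

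Other programs held few or no calls. None of the 15 cell cycle genes was called, and 14 had the interval within 0.5, against 55.8% of all genes tested. Among 14 cholesterol synthesis genes none was called, 13 had differences below 0 and the median was -0.18. No call was found among 9 Notch genes, 16 interferon-stimulated genes, 14 IL-4 response genes, 19 engulfment genes and 11 hypoxia genes. Of the 14 IL-4 response genes, 3 had OCsEoS wholly above OCsEo and 1 the reverse, against 2.41% and 3.06% of all genes tested. Arg1, the arginase of IL-4 treated macrophages, had a mean of 1.06 CPM in OCsEo and 3.69 CPM in OCsEoS (-1.80, adjusted p = 0.0827, edgeR). Against OCsCtr, Arg1 differed by 1.56 in OCsEo and 3.36 in OCsEoS (adjusted p = 0.0341 and 8.47e-05, edgeR). The complement chains C1qa, C1qb and C1qc had differences of -0.80, -0.67 and -0.59 and were not called. Of 15 eicosanoid genes, Alox15 was the 1 called, against 0.307% of all genes tested called higher in OCsEo.

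The remaining called genes belong to no list. Adra2a, the alpha-2A adrenergic receptor, and the noncoding 4930412C18Rik had no count in OCsEoS, and were at least 8.24-fold and 6.06-fold higher in OCsEo against the floor of 3 counts per library (adjusted p = 0.0238 and 0.0261, edgeR). The call of 4930412C18Rik was lost without any 1 of the 8 libraries and that of Adra2a without any 1 but OCsEoS 2 (adjusted p up to 0.0924 and 0.083). Fam101b, Pcp4l1, Cdkn1c (the cell cycle inhibitor p57), Fam83f, Pgm5 and Gdpd1 differed by 1.13 to 1.64 and Tnfsf12 (the cytokine TWEAK), Hist1h2al, Gm13139, Marcks, Lst1, Ephx2 (the soluble epoxide hydrolase), Ndrg4, Syngr1, Gm6166, Anpep (aminopeptidase N) and Vat1 by 0.51 to 0.96. Of the 52 genes, 24 overlap another annotated gene, 9 of them on the same strand, among them Tnfsf12, Pgm5, Gm13139 and Ctla2a, and their counts are uncertain to that extent.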

How the data were processed

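Bulk RNA-seq was made from 12 osteoclast cultures, 4 each of OCsCtr, OCsEo and OCsEoS, grouped by their sample titles. The authors trimmed the reads with fastp, aligned them to GRCm38 with HISAT2 2.0.5 and counted them per gene with featureCounts, and the deposited values are raw counts that were not normalized. The annotation release and strand setting are not given in the sources used here.

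Genes were kept with the filter of edgeR 4.0.16 (R 4.3.3, minimum count 10) and scaled by TMM, and the quasi-likelihood test was fitted to all 12 libraries with group as the 1 term. A gene was called when its p, adjusted by Benjamini-Hochberg, was under 0.05 and its log2 difference over 0.5 in size. CPM values were computed from the counts with the TMM library sizes. The standard error was derived from the log2 difference and its F statistic. The scripts were tested on simulated data. Replicate libraries differed by more than sampling noise (chi-square per degree of freedom 9.79 to 34.4), so none was merged.

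All called genes were to be named, since there were fewer than 80, except 1 that is not reported here but stays in the counts, and list members were given as counts and medians. Genes under the filter were given by their counts. The groups compared, the lists and the tests were chosen with earlier results of these data known, and the lysosomal list was added after the values were seen. Alternatives were other scalings, other filters, DESeq2 1.42.0, the 8 libraries alone, a replicate block, other thresholds, the fit without mitochondrial or eosinophil genes and leaving out each library. Positions and overlaps came from GENCODE vM21 (GRCm38), in which all 52 called genes were found, and promoter sequences from RefSeq.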

Additional observations from a re-analysis of the deposited data

Results flagged for a closer look

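In 10 of 156 sets of 4 libraries (52 called genes in 3 groups) 1 library stood apart from the others of its group by Dixon's test, which chance does in about 1 of 20 sets. High libraries were OCsCtr 2 for Il5 (0.0297 CPM, 1 count) and Rpl17 (286 CPM), OCsEo 3 for Adra2a (1.28 CPM), Sepw1 (66.9 CPM) and Mpo (41.6 CPM), OCsEo 4 for Cbr2 (5.72 CPM), OCsEoS 2 for Serpinb2 (2.87 CPM) and OCsEoS 4 for Nox1 (16.1 CPM). Low libraries were OCsEoS 4 for Gdpd1 (3 CPM) and OCsCtr 1 for Ckb (3080 CPM).

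Some listed genes that were too low for the test had more than 3 counts over a group and a mean above the highest OCsCtr library. In OCsEo these were the eosinophil genes Ear1 (0.369 CPM), Epx (0.203 CPM) and Il5ra (0.229 CPM), the T cell genes Cd3e (0.167 CPM), Cd3g (0.0449 CPM) and Trbc2 (0.151 CPM), the erythroid factor Klf1 (0.0987 CPM), the Y-linked Ddx3y (0.0822 CPM) and Retnla, a product of IL-4 treated macrophages (0.184 CPM). In OCsEoS these were Cd8a (0.198 CPM), Retnla (0.0816 CPM), Timd4, a receptor of resident macrophages (0.254 CPM), and Adm, the precursor of adrenomedullin (0.427 CPM). Adm, with 10, 10, 28 and 8 counts in OCsEoS, 8, 2, 7 and 13 in OCsCtr and none in OCsEo, was lower in OCsEo than in OCsEoS in the fit without a filter (adjusted p = 0.0164, edgeR). Most of these means correspond to a few counts in a library. Within OCsEo, Cd3e (26 counts) and Cd3g (7 counts) were found in OCsEo 3 alone, and Ddx3y (11 counts) in OCsEo 1 alone. Trbc2 had 0, 6, 16 and 1 counts in OCsEo.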

How the results depend on the processing

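No call of a named gene changed direction under any alternative. Against 42 genes higher in OCsEo and 10 lower, there were 68 and 32 without a filter on low counts, 67 and 27 with DESeq2 on 12 libraries, 18 lower with DESeq2 on 8 libraries, 68 higher without a fold threshold, 18 and 3 at a threshold of 1, and 3 and 0 when tested against 0.5 (edgeR's glmTreat). The 3 were Il5, Alox15 and mt-Nd6. DESeq2 on 12 libraries called 50 of the 52 genes. With 1 library left out, the counts ran from 16 to 50 higher and from 1 to 12 lower. With the replicate number as a replicate block there were 50 and 17. Deviations of same-numbered libraries correlated weakly (0.018 to 0.046), with -0.078 to 0.044 for the other pairs. OCsEo 1 and OCsEoS 4 correlated best with each other, and all other libraries with their own number. The numbers share no stated culture. The cause of these changes was not tested. The remaining alternatives gave counts within 1.5 times those of the comparison, and the number of genes with an interval within 0.5 stayed between 7092 and 8926. Medians of the lysosomal list ran from 0.176 to 0.235 over the scalings. Genes near 0.1 CPM lie at the limit of detection at this depth.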
